A study of Mus musculus with 10 samples.

Results

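The sites described here are the regions at which HEB was listed in all 4 states profiled: differentiating mouse cells with and without the inhibitor SB431542, and mouse embryonic stem cells (ESCs) with and without it. They were chosen as the regions of the Endoderm+SB HEB list, off the mitochondrial chromosome, that overlapped by at least 1 bp a region in each of the Endoderm HEB, ESC+SB HEB and ESC HEB lists. Of 10145 regions, 2230 met the rule (22.0%), and they are called shared regions below. The regions were selected on their presence in the 4 HEB lists, and thereby on their peak heights, so counts of sharing and ranks of height are given as a description. Overlap with SMAD2/3 and position relative to genes were not used by the choice.

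Chromatin immunoprecipitation with sequencing (ChIP-seq) was done in CGR8 cells, a mouse ESC line, and in endoderm derived from it, in 10 samples: 6 ChIP libraries and 4 inputs. Endoderm+SB cells received Activin A at 100 ng/ml together with SB431542 at 10 µM from day 2 and were taken at day 4, after 48 hours; the labels' wording on the order of both agents leaves room for another reading. Endoderm cells received Activin A alone over the same days, in serum-free medium. ESC+SB cells were kept feeder-free in medium with serum and LIF and received SB431542 at 10 µM for 24 hours, and ESC cells were kept in the same way without it. HEB was profiled in all 4 states with the same antibody lot, and SMAD2/3 only in Endoderm and ESC. With 1 ChIP library in each group there is no measure of the spread between cultures and no test across samples, and every comparison is between these libraries. All cells came from 1 ESC line, and ChIP signal does not show expression, so the labelled cell type could not be checked against expressed markers. A peak height averages over all cells of a culture, so more cells bound and more HEB per bound site cannot be told apart.

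HEB, encoded by Tcf12, is an E protein: a basic helix-loop-helix transcription factor that binds E-boxes, the motif CANNTG, as a dimer with itself, another E protein or a tissue-restricted partner. Id proteins lack the DNA-binding basic region and hold E proteins off DNA. SMAD2 and SMAD3 are phosphorylated by the activin, Nodal and TGF-beta type I receptors that SB431542 inhibits, and then enter the nucleus and bind DNA with partner factors. The title of the study names HEB, SMAD2/3 and Polycomb repressive complex 2 (PRC2), which places the repressive mark H3K27me3 on developmental genes.

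Promoters of 5 genes with a shared region over their 5′ end show the E-boxes that such windows hold and lack. They are RefSeq sequences of build GRCm38.p6, from 250 bases before to 50 after the start site, written 5′ to 3′ on the gene's strand with each CANNTG in capitals, and positions count from +1 at the first transcribed base. Cbx8 is shown because it was among the 10 promoter-proximal regions ranked high in all 4 lists, Cldn4 because it ranked far lower in Endoderm+SB than in the other lists, Pax9 as the highest shared region among PRC2-bound homeobox genes, Pcgf2 as a Polycomb gene of low rank, and Id3 as a window with no CANNTG. Their positions are chr11:119040864-119041163 on the minus strand for Cbx8, chr5:134946885-134947184 on the minus strand for Cldn4, chr12:56695221-56695520 on the plus strand for Pax9, chr11:97699599-97699898 on the minus strand for Pcgf2 and chr4:136143572-136143871 on the plus strand for Id3.
Cbx8: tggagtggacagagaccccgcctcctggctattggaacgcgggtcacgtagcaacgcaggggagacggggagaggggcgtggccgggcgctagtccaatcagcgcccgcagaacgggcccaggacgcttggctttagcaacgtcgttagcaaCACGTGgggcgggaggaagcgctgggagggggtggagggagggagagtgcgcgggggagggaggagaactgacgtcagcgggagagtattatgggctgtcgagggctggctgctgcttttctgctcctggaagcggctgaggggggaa
Cldn4: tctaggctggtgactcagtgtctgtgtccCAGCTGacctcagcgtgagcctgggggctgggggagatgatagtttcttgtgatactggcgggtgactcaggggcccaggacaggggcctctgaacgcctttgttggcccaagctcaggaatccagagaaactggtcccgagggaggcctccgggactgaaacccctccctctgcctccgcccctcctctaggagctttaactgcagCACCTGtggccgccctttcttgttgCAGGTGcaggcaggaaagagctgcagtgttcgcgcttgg
Pax9: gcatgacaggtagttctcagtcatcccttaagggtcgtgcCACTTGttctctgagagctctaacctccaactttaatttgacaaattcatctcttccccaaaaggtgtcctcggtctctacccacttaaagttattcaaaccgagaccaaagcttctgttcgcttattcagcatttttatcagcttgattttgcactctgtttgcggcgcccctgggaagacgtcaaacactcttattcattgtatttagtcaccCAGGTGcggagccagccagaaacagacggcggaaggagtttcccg
Pcgf2: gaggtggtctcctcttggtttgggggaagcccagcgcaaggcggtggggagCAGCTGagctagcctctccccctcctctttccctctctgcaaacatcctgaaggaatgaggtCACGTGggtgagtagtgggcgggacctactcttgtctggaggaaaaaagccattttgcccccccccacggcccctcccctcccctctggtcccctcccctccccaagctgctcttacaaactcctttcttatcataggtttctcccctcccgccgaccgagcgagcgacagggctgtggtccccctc
Id3: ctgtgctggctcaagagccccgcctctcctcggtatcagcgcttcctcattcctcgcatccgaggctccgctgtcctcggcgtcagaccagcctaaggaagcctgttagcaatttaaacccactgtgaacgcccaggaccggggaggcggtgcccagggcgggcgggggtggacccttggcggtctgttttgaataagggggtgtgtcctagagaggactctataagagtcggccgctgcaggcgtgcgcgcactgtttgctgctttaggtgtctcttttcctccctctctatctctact

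The Cbx8 window held 1 E-box, CACGTG at -98. Cldn4 held 3, CAGCTG at -221, CACCTG at -14 and CAGGTG at +12. Pax9 held CACTTG at -210 and CAGGTG at +6, and Pcgf2 held CAGCTG at -199 and CACGTG at -137. The letters CANNTG, which read the same on both strands as a class, occurred in 72.3% of all 32851 promoter windows of the table, CAGCTG in 16.3%, CAGGTG or its reverse CACCTG in 20.2% and CACGTG in 7.15%; each of the last 3 is also a CANNTG. A match is a description of the letters only. The deposited regions are in build mm9, whose sequence was not used here, so these windows were matched by gene symbol and not placed relative to the peaks. Of the 1018 genes listed for a promoter-proximal shared region, 800 (78.6%) were in the table, under the 80% needed, so a motif or base-composition comparison over the whole set was void and was not made.

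Among the Endoderm+SB HEB regions, 4109 (40.5%) overlapped no other HEB list, 2620 (25.8%) overlapped 1, 1186 (11.7%) overlapped 2 and 2230 overlapped all 3. Of the regions missing from 1 list only, 506 were missing from Endoderm HEB, 159 from ESC+SB HEB and 521 from ESC HEB. Shared regions made up 2214 of 18981 Endoderm HEB regions (11.7%), 2217 of 16769 ESC+SB HEB regions (13.2%) and 2224 of 17222 ESC HEB regions (12.9%). The Endoderm+SB HEB list was the shortest of the 4 and set the upper limit of sharing. It held 2141712 ChIP tags in its regions, against 5051930 for Endoderm HEB, 4508630 for ESC+SB HEB and 4810688 for ESC HEB, and it alone listed regions on mitochondrial DNA. Overlaps were seldom marginal: the median overlap covered 98.2% of the shared region in Endoderm HEB, 99.4% in ESC+SB HEB and 96.6% in ESC HEB.

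The 3 genes that mark this set, Id1, Bmi1 and Cbfa2t2, each had a shared region. The peak heights given below are the authors' own values for each peak, in deposited units, with a scaling that none of the sources used here gives, and percentile ranks are computed within each list, where 100 is its highest peak. Neither is on a common scale across lists, so the values of a region in different lists are set side by side, and a higher height in 1 list is a statement on the deposited values and not a measured change in binding. Id1 encodes an inhibitor of E proteins and is a BMP target. Its shared region, chr2:152560524-152561186 (mm9, as all regions below), lay 824 bp from the 5′ end and had heights of 143 in Endoderm+SB, 148 in Endoderm, 346 in ESC+SB and 259 in ESC. It ranked at percentile 98.1 of Endoderm+SB, 95.0 of Endoderm, 99.6 of ESC+SB and 98.8 of ESC, near the top of every list. It also overlapped SMAD2/3 in Endoderm (height 103) and in ESC (height 53.3). A further Id1 region, downstream at chr2:152564021-152565972 with height 284 in Endoderm HEB, was not matched by a further region of Id1 in the Endoderm+SB HEB list.

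Bmi1 encodes a core subunit of Polycomb repressive complex 1 (PRC1). Its higher shared region, chr2:18605700-18606111, lay in or near the gene, 7055 bp from the 5′ end, with heights of 117 in Endoderm+SB, 317 in Endoderm, 339 in ESC+SB and 259 in ESC. Its lower shared region, chr2:18604192-18604450, had heights of 29.9 in Endoderm+SB, 63.3 in Endoderm, 56.5 in ESC+SB and 49.6 in ESC. The Bmi1 5′ end itself was covered by HEB only in ESC+SB (height 52.3) and ESC (height 46.3), and neither shared region overlapped SMAD2/3. Cbfa2t2 encodes a corepressor of the ETO family, proteins known to bind E proteins. Its shared region, chr2:154291679-154292110, lay 29459 bp from the 5′ end with heights of 42.0 in Endoderm+SB, 305 in Endoderm, 784 in ESC+SB and 1211 in ESC. It ranked at percentile 67.4 in Endoderm+SB, against 99.0 in Endoderm, 99.9 in ESC+SB and 99.96 in ESC, and overlapped SMAD2/3 in ESC only (height 63.5).

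**Figure D1:**
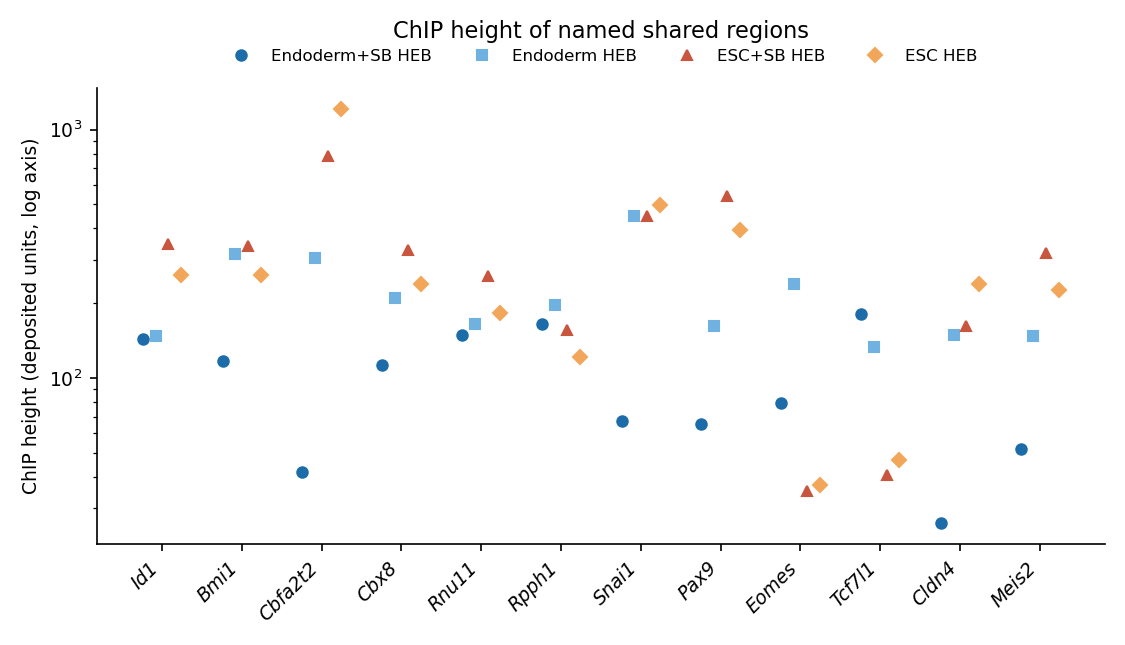
Peak height, in deposited units on a log axis, of 12 named shared regions in the 4 HEB lists, with 1 point per list and region (for genes with several shared regions, the highest in Endoderm+SB). Id1, Cbx8, Rnu11 and Rpph1 were high in all 4 lists, Cbfa2t2 spanned 42.0 in Endoderm+SB to 1211 in ESC, and the deposited heights of Eomes and Tcf7l1 were higher in both endoderm lists than in both ESC lists.

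By location, 969 shared regions (43.5%, exact 95% interval 41.4 to 45.5) lay within 1 kb of the 5′ end of a listed gene and are called promoter-proximal, against 2528 of the 7915 other Endoderm+SB HEB regions (31.9%, 30.9 to 33.0) and a background of 34.5% over the whole list. A further 550 shared regions (24.7%) lay in or near a gene but away from its 5′ end, against 29.2% of the others, and 711 (31.9%) had no gene listed, against 38.8%. In the other lists the contrast was wider: promoter-proximal regions made up 44.3% of the shared and 11.3% of the other Endoderm HEB regions, 45.1% and 25.8% in ESC+SB HEB, and 44.0% and 13.8% in ESC HEB. The other Endoderm+SB HEB regions were mixed in this respect: promoter-proximal regions made up 74.9% of those that lacked only ESC HEB, 45.1% of those that lacked only Endoderm HEB, 17.6% of those that lacked only ESC+SB HEB, 82.5% of those found besides in ESC+SB HEB alone, 37.4% of those in ESC HEB alone, 11.1% of those in Endoderm HEB alone and 27.5% of those in no other list. The share of the shared regions thus lay within the range of these groups. The contrast within Endoderm+SB HEB depended on the lengths of the lists. With every HEB list limited to as many of its highest peaks as the shortest holds, 1184 regions were shared and their promoter-proximal share was 30.9%, below the 34.9% of the others. Intervals cover counting error only, since regions of 1 library are not replicates.

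**Figure D2:**
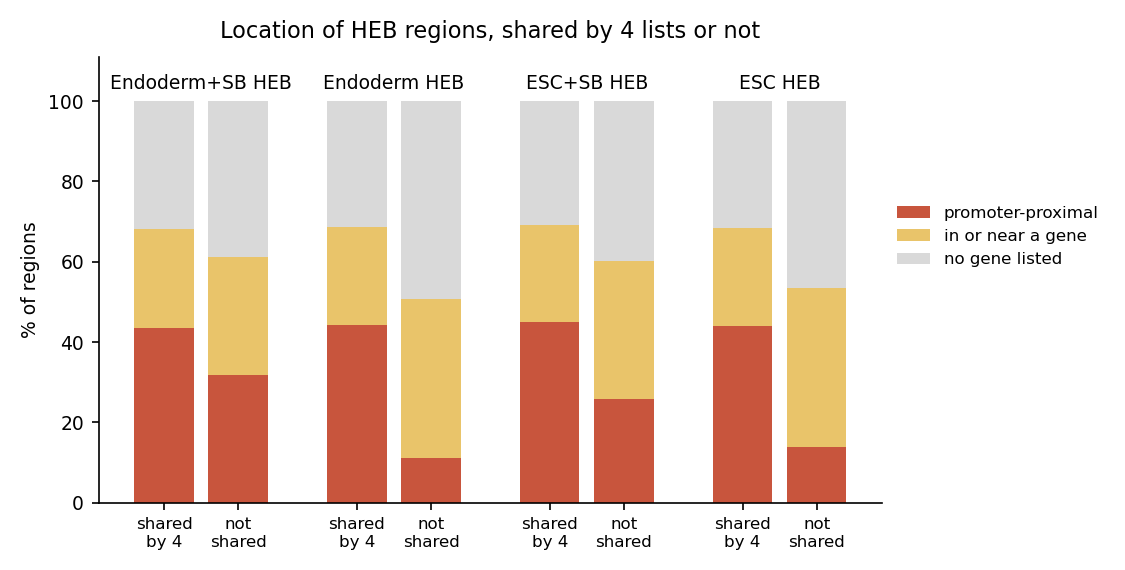
Stacked bars give the percentage of regions that were promoter-proximal (within 1 kb of a listed 5′ end), elsewhere in or near a gene, or without a listed gene, for regions shared by all 4 HEB lists (left bar) and the other regions (right bar) of each list. The promoter-proximal share of shared regions was 43.5% to 45.1% in all 4 lists, and that of the other regions ranged from 11.3% in Endoderm HEB to 31.9% in Endoderm+SB HEB.

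The promoter-proximal share was also compared within quintiles of Endoderm+SB HEB peak height. From the lowest to the highest quintile, shared regions made up 14.8%, 18.1%, 24.3%, 27.3% and 25.4% of the list. Promoter-proximal regions made up 46.8%, 44.7%, 51.3%, 50.5% and 25.4% of the shared regions in those quintiles, against 46.2%, 45.7%, 40.4%, 29.4% and 10.7% of all regions. The difference lay in the upper 3 quintiles, where shared regions lay at promoters more often than the list as a whole. Of the 969 promoter-proximal shared regions, 752 (77.6%) overlapped a 5′ end and 89 lay within 1 kb of more than 1 listed gene's 5′ end. The shared regions elsewhere in or near a gene lay a median of 15282 bp from its 5′ end.

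Promoter-proximal and other shared regions differed in where they stood within each list. The median percentile of promoter-proximal shared regions was 54.6 in Endoderm+SB, 47.0 in Endoderm, 67.0 in ESC+SB and 45.2 in ESC, and that of the other 1261 was 62.2 in Endoderm+SB, 74.2 in Endoderm, 80.1 in ESC+SB and 75.2 in ESC. Median heights of promoter-proximal shared regions were 36.0 in Endoderm+SB, 37.7 in Endoderm, 49.4 in ESC+SB and 35.5 in ESC, and those of the others were 39.0 in Endoderm+SB, 59.4 in Endoderm, 63.9 in ESC+SB and 56.9 in ESC. Over the whole lists, promoter-proximal regions also had the lower median percentile, so this order is not particular to shared regions. The whole-list medians of promoter-proximal and other regions were 37.6 and 58.8 in Endoderm+SB and 33.9 and 53.1 in Endoderm. They were 40.0 and 54.5 in ESC+SB and 38.9 and 52.5 in ESC. The gap in percentile was widest in Endoderm+SB over the whole lists, and narrowest in Endoderm+SB among the shared regions. Ranked by the authors' tag enrichment instead, the promoter-proximal medians were lower, at 30.8 in Endoderm+SB, 15.4 in Endoderm, 38.0 in ESC+SB and 23.9 in ESC, and the other medians were 52.8 in Endoderm+SB, 52.9 in Endoderm, 72.1 in ESC+SB and 65.2 in ESC, so the order of the classes held. Only 71 shared regions (3.18%), 16 of them promoter-proximal, stood in the highest 10% of all 4 lists. In the upper 50% of all 4 lists were 223 promoter-proximal (23.0%) and 517 other shared regions (41.0%), and in the lower 50% of all 4 were 109 promoter-proximal (11.2%) and 43 other shared regions (3.41%).

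**Figure D3:**
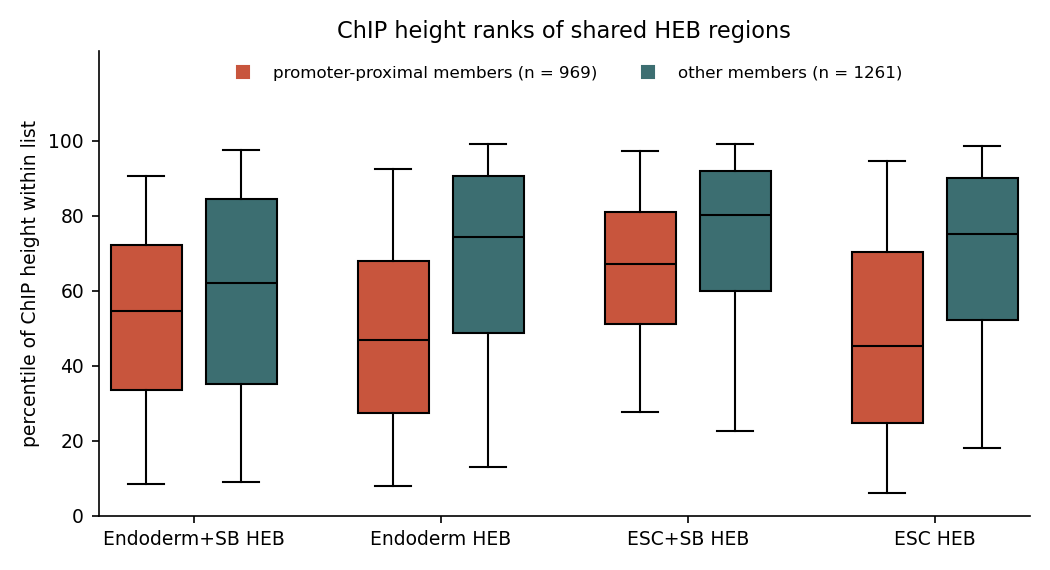
Boxes give the median and quartiles, and whiskers the 5th to 95th percentiles over regions, of the within-list percentile of peak height for the 969 promoter-proximal and 1261 other shared regions in each HEB list. The other regions had the higher median in every list, 62.2 against 54.6 in Endoderm+SB and 74.2 against 47.0 in Endoderm. The same order held over all regions of each list.

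Across the 2230 shared regions, the heights of the ESC+SB and ESC lists ranked most alike, with a Spearman coefficient of 0.83. The coefficient was 0.40 between Endoderm+SB and Endoderm, 0.26 between Endoderm+SB and ESC+SB, and 0.26 between Endoderm+SB and ESC. Endoderm stood closer to the ESC lists than Endoderm+SB did, at 0.47 with ESC+SB and 0.59 with ESC. These are descriptions across regions that share libraries, region width and local background, and the regions entered by passing the threshold of all 4 lists. Peak positions lay close together: the summit of a shared region lay a median of 14 bp from that in Endoderm, 17 bp from that in ESC+SB and 19 bp from that in ESC. All 3 summits lay within 50 bp at 1431 shared regions (64.2%), made up of 68.1% of the promoter-proximal and 61.1% of the other regions. Summits within 50 bp of the Endoderm summit were found at 80.5% of shared regions and 81.2% of the other regions that overlapped Endoderm HEB. For ESC+SB HEB these shares were 73.6% of shared and 70.4% of the other overlapping regions, and for ESC HEB 73.6% of shared and 63.9% of the other overlapping regions (71.8 to 75.5 and 60.4 to 67.3).

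Overlap with SMAD2/3, which the rule did not use, was more common at shared regions. Endoderm SMAD2/3 overlapped 1470 shared regions (65.9%, 63.9 to 67.9), against 2274 of the other Endoderm+SB HEB regions (28.7%, 27.7 to 29.7) and 36.9% of the list. ESC SMAD2/3 overlapped 584 shared regions (26.2%, 24.4 to 28.1), against 229 of the others (2.89%, 2.54 to 3.29) and 8.01% of the list. Most of those other regions had no HEB in the cells where SMAD2/3 was profiled, so the own-cell lists give the closer comparison. Within Endoderm HEB, 66.5% of shared regions (64.5 to 68.5) and 31.2% of the others (30.5 to 31.9) overlapped Endoderm SMAD2/3, with a background of 35.3%. Across cell states, 589 shared regions of Endoderm HEB (26.6%, 24.8 to 28.5) and 4.46% of the others (4.15 to 4.78) overlapped ESC SMAD2/3, with a background of 7.04%, and 66.4% of shared and 12.0% of other ESC HEB regions overlapped Endoderm SMAD2/3, with a background of 19.0%. Within ESC HEB, 26.4% of shared regions (24.6 to 28.3) and 18.8% of the others (18.2 to 19.5) overlapped ESC SMAD2/3, with a background of 19.8%. The gap between shared and other regions was thus wider in endoderm than in ESCs when each HEB list was set against SMAD2/3 of its own cells. The SMAD2/3 lists differed in length, with 11033 regions and 2600741 ChIP tags in Endoderm and 4111 regions and 933126 tags in ESC. They were not brought to equal length, so the part of their lengths in this difference was not tested. The labels give 1 input per state, which the SMAD2/3 and HEB libraries of that state share, and the part of this shared background in the overlap was not tested.

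Overlap with SMAD2/3 differed by which of the other HEB lists held a region. Regions of Endoderm+SB HEB that lacked only ESC HEB overlapped Endoderm SMAD2/3 at 66.4% (62.2 to 70.5), and those that lacked only ESC+SB HEB at 71.7% (64.0 to 78.5), so their intervals include the 65.9% of the shared regions. Regions that lacked only Endoderm HEB stood at 34.2% (30.1 to 38.5), and those in Endoderm HEB alone besides Endoderm+SB at 50.4% (48.2 to 52.7). For ESC SMAD2/3 the shared regions stood above each of these groups: 26.2%, against 19.2% (15.8 to 22.9) where only Endoderm HEB was lacking, 14.5% (9.40 to 20.9) where only ESC+SB HEB was lacking and 5.57% (3.76 to 7.90) where only ESC HEB was lacking. Regions of no other HEB list overlapped Endoderm SMAD2/3 at 9.83% and ESC SMAD2/3 at 0.608%.

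**Figure D4:**
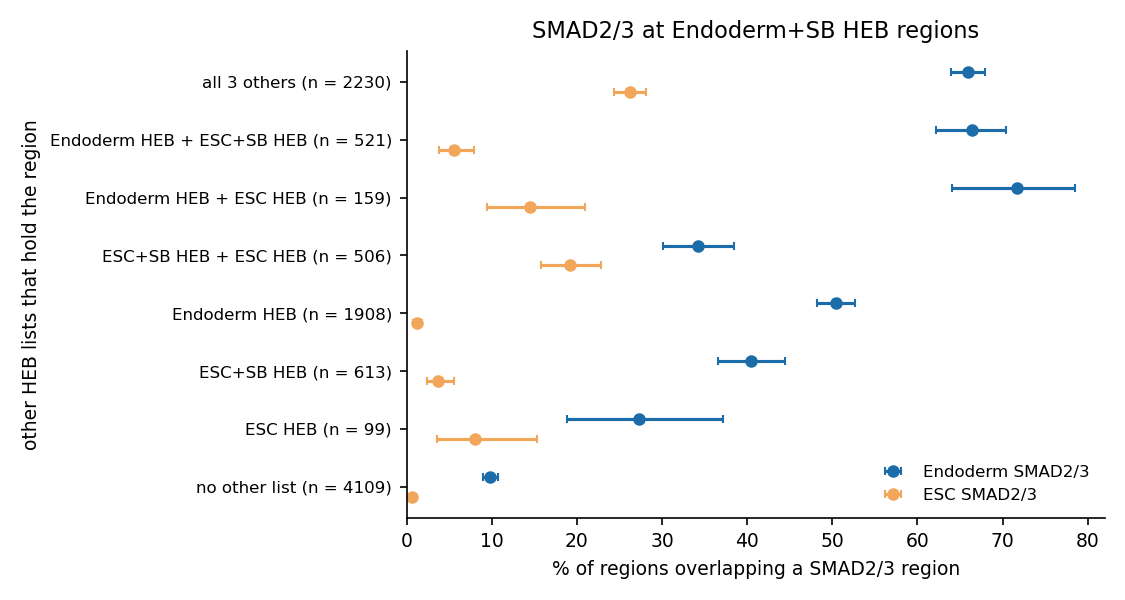
Points give the percentage of Endoderm+SB HEB regions that overlap an Endoderm or an ESC SMAD2/3 region, by the other HEB lists that also hold the region, and bars are exact 95% intervals for counting error. Shared regions (top row) stood at 65.9% for Endoderm SMAD2/3, near the 2 rows that hold Endoderm HEB and 1 ESC list, and at 26.2% for ESC SMAD2/3, above every other row.

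Both classes of location showed the contrast, given first within the Endoderm+SB HEB list, most of whose other regions had no HEB listed in ESCs. Endoderm SMAD2/3 overlapped 71.1% of promoter-proximal shared regions and 40.0% of the promoter-proximal others, and 61.9% of the remaining shared regions and 23.4% of the remaining others. ESC SMAD2/3 overlapped 20.8% of promoter-proximal shared regions and 4.27% of the promoter-proximal others, and 30.3% of the remaining shared regions and 2.25% of the remaining others. Among Endoderm+SB HEB regions, promoter-proximal regions thus had the higher share for Endoderm SMAD2/3 in both sets. For ESC SMAD2/3 they had it among the others but not among the shared regions. Within ESC HEB, ESC SMAD2/3 overlapped 20.7% of promoter-proximal shared regions and 12.1% of the promoter-proximal others. It overlapped 30.8% of the remaining shared regions and 19.9% of the remaining others. In that list promoter-proximal regions had the lower share in both sets, and the gaps between shared and other regions were smaller. By pattern, 514 shared regions (23.0%) overlapped SMAD2/3 in both states, 956 (42.9%) in Endoderm only, 70 (3.14%) in ESC only and 690 (30.9%) in neither. The ESC SMAD2/3 list was the shorter one, as given above, and this split was not examined at equal lengths. Among shared regions the overlap was larger in the highest quintile of Endoderm+SB HEB height than in the lowest, at 54.2% in the lowest and 74.8% in the highest for Endoderm SMAD2/3, and at 16.9% in the lowest and 39.0% in the highest for ESC SMAD2/3. Among the other regions it was 26.4% in the lowest quintile and 32.6% in the highest for Endoderm SMAD2/3, and 3.01% in the lowest and 2.38% in the highest for ESC SMAD2/3. The SMAD2/3 peaks at shared regions were of middling height, at a median percentile of 61.4 of the Endoderm SMAD2/3 list and 48.5 of the ESC SMAD2/3 list.

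Promoter-proximal shared regions were ordered by their lowest rank over the 4 lists, and the 10 highest are given. The top one, chr17:39979858-39983423 at Mir715, had the highest peak of the Endoderm+SB, Endoderm and ESC+SB lists (heights 1440, 1628 and 3103) and a height of 1989 in ESC, but its input was high as well, with background heights of 164 to 414. Mir715 lies where the assembly carries a copy of the ribosomal RNA repeat. Sfi1, at chr11:3090998-3094408, had 2096 ChIP and 1735 background tags in Endoderm+SB, a tag enrichment of 1.21, so its high rank is not matched by enrichment. In all, 11 shared regions had a background height above 10 in Endoderm+SB, and without such regions 2219 remained with a promoter-proximal share of 43.5%.

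Cbx8, which encodes a chromodomain subunit of PRC1, had at chr11:118901693-118902692 heights of 113 in Endoderm+SB, 210 in Endoderm, 329 in ESC+SB and 239 in ESC, all above percentile 96 and over its 5′ end. The region of Pcbp4, an RNA-binding protein gene, and Abhd14b at chr9:106355032-106356327 had heights of 134 in Endoderm+SB, 255 in Endoderm, 209 in ESC+SB and 205 in ESC. Rnu11, the gene of the U11 small nuclear RNA of the minor spliceosome, had at chr4:131825597-131826563 heights of 149 in Endoderm+SB, 165 in Endoderm, 256 in ESC+SB and 184 in ESC. The region over Grcc10, also listed for Atn1 and for Rnu7, the gene of the histone pre-mRNA processing U7 RNA, had heights of 136 in Endoderm+SB, 159 in Endoderm, 194 in ESC+SB and 149 in ESC. Rpph1, the RNA component of RNase P, shares its start region with Parp2, a DNA repair gene, and this region at chr14:51427141-51427737 had heights of 166 in Endoderm+SB, 196 in Endoderm, 156 in ESC+SB and 122 in ESC. Wbscr25, 5330413P13Rik and Id1 completed the 10, with lowest percentiles between 95.03 and 95.45.

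Small structural RNA genes were singled out after their values were seen. Of the 969 promoter-proximal shared regions, 5 (0.516%, 0.168 to 1.20) lay at such a gene, namely Rmrp, Rnu11, Rnu12, Rpph1 and the Snord49a and Snord49b pair, against 3 of the 2528 promoter-proximal others (0.119%, 0.0245 to 0.346). The intervals overlap. Rmrp, the RNA of RNase MRP, had heights of 90.4 in Endoderm+SB, 116 in Endoderm, 66.8 in ESC+SB and 53.9 in ESC. Rnu12, the U12 RNA of the minor spliceosome, had heights of 155 in Endoderm+SB, 159 in Endoderm, 153 in ESC+SB and 88.4 in ESC. Of these 5 regions, those of Rpph1 and Rnu12 overlapped no SMAD2/3 region.

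The 10 highest-ranked regions away from promoters mostly had no listed gene. Of these, 4 stood in regions of high input, 3 of them in the chr17 cluster next to Mir715 and 1 at chr11:108873082-108873347. Of the other 6, a neighbouring pair at chr5:141058857-141059779 and chr5:141059826-141060555 lay 22505 and 21729 bp from the nearest listed 5′-end region, that of Lfng, which encodes a glycosyltransferase that modifies Notch receptors. The first of the pair had heights of 193 in Endoderm+SB, 939 in Endoderm, 240 in ESC+SB and 394 in ESC. Both overlapped the same broader region in each of the other lists. The region in Bcl2l1, the gene of the survival protein Bcl-xL, at chr2:152630045-152630771 had heights of 157 in Endoderm+SB, 811 in Endoderm, 592 in ESC+SB and 799 in ESC. The region at chr9:61140862-61141743, 78179 bp from the nearest listed 5′-end region, at Tle3, a Groucho corepressor gene, had heights of 173 in Endoderm+SB, 621 in Endoderm, 266 in ESC+SB and 390 in ESC. The remaining regions were chr6:149079414-149080047, with 200 in Endoderm+SB, 468 in Endoderm, 379 in ESC+SB and 280 in ESC, and chr5:119505292-119505903, with 152 in Endoderm+SB, 288 in Endoderm, 561 in ESC+SB and 743 in ESC. All 6 overlapped Endoderm SMAD2/3, as did 65.9% of all shared regions.

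By gene, 1475 genes were listed for a shared region out of 10036 listed in any HEB list (14.7%), and 1018 of them for a promoter-proximal one. Gene lists below were chosen with earlier results of these data known, genes with many or long regions have more chances to be counted, and no list was tested. Shares of a list are of its genes with any HEB region. For a gene with several shared regions, that of highest Endoderm+SB height is described, so its Endoderm+SB value was in part selected. The lists with the largest shares were Id factors and E proteins (4 of 7 genes), PRC2-bound homeobox regulators (11 of 23), neural regulators (9 of 19) and Wnt and Notch genes (9 of 22), and the ETO and LMO2-complex partners of E proteins had the smallest (1 of 8, Cbfa2t2).

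**Figure D5:**
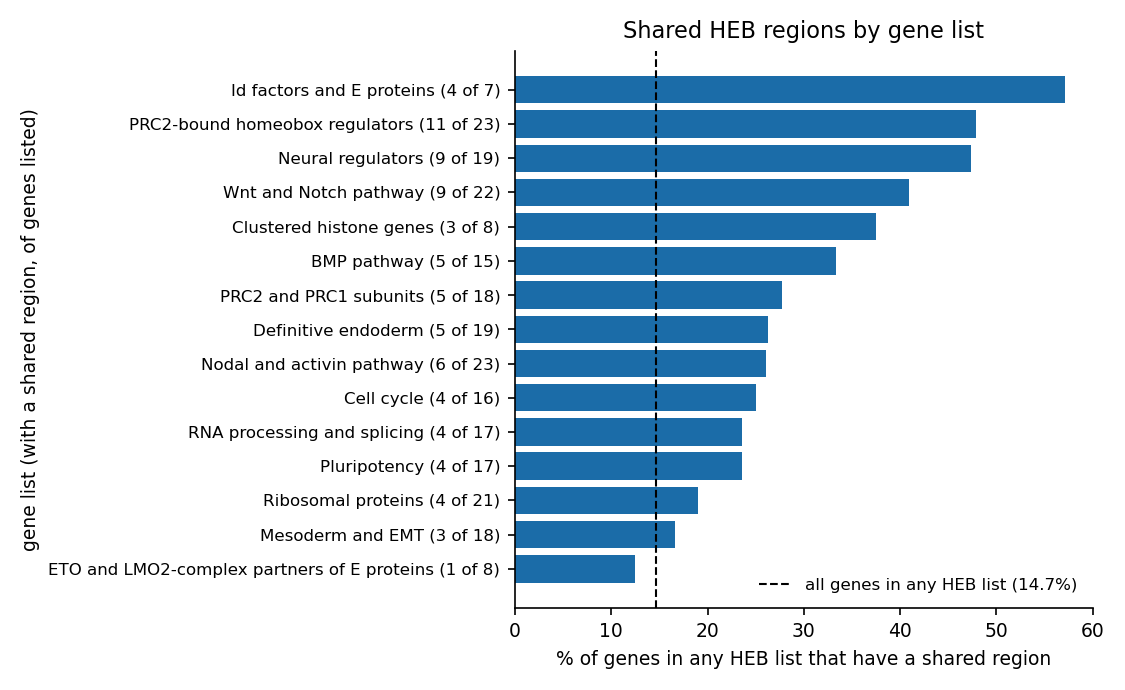
Bars give, for each of 15 gene lists, the percentage of its genes listed in any HEB list that had a shared region, with the counts beside the names and the background of 14.7% as a dashed line. 14 lists stood above the line, from 16.7% (mesoderm and EMT) to 57.1% (Id factors and E proteins), and 1 below it at 12.5%.

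Among Id factors and E proteins, the genes with a shared region were Id1, Id2, Id3 and Tcf4. Id3, over its 5′ end at chr4:135698956-135701184, had heights of 91.1 in Endoderm+SB, 33.8 in Endoderm, 164 in ESC+SB and 77.3 in ESC. These were higher in each SB list than in its untreated counterpart. The median height of promoter-proximal shared regions was also higher in ESC+SB (49.4) than in ESC (35.5). It was not higher in Endoderm+SB (36.0) than in Endoderm (37.7). Id2, at chr12:25777643-25778045 and 2912 bp from its 5′ end, had heights of 27.2 in Endoderm+SB, 68.0 in Endoderm, 67.8 in ESC+SB and 51.4 in ESC. Tcf4, which encodes another E protein, had heights of 34.8 in Endoderm+SB, 32.1 in Endoderm, 44.2 in ESC+SB and 29.8 in ESC. Tcf12, the gene of HEB itself, had no shared region. Of the BMP pathway list, 5 of 15 genes had one: the 3 Id genes, Bmp7 and Smad6, which encodes an inhibitory SMAD. Bmp7, a BMP ligand, had heights of 29.6 in Endoderm+SB, 87.1 in Endoderm, 74.2 in ESC+SB and 46.9 in ESC. Smad6 had heights of 39.7 in Endoderm+SB, 40.2 in Endoderm, 59.9 in ESC+SB and 41.5 in ESC.

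Of 18 Polycomb genes with any HEB region, 5 had a shared one: Bmi1, Cbx8 and Pcgf2 of PRC1, Eed, which encodes a core PRC2 subunit, and Mtf2, which encodes a PRC2 accessory subunit. Mtf2, at chr5:108494426-108494892 over its 5′ end, had HEB heights of 51.8 in Endoderm+SB, 58.5 in Endoderm, 71.5 in ESC+SB and 45.1 in ESC, and SMAD2/3 heights of 138 in Endoderm and 82.3 in ESC. Pcgf2 was low throughout, with HEB heights of 28.4 in Endoderm+SB, 31.2 in Endoderm, 39.3 in ESC+SB and 26.5 in ESC.

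Of 23 PRC2-bound homeobox regulators with any HEB region, 11 had a shared one: Hoxb2, Nkx2-2, Nkx6-1, Pax2, Pax9, Lhx2, Lhx9, Dlx1, Meis1, Meis2 and Irx3. These 11 were also all the genes of the list with any Endoderm+SB HEB region. Pax9, a paired-box gene of pharyngeal endoderm and tooth, had at chr12:57796386-57797064 heights of 65.4 in Endoderm+SB, 161 in Endoderm, 540 in ESC+SB and 395 in ESC. Meis1, a TALE homeobox gene, had 57.1 in Endoderm+SB, 112 in Endoderm, 112 in ESC+SB and 86.9 in ESC. Dlx1, a regulator of forebrain interneurons, had 50.6 in Endoderm+SB, 44.6 in Endoderm, 88.8 in ESC+SB and 72.0 in ESC. Of 19 neural regulators, 9 had a shared region: Pax6, Pax3, Pax7, Nes, Zic1, Zic2, Neurod1, Atoh1 and Otx1. Pax6, the eye and forebrain regulator, had at chr2:105527582-105529184 heights of 140 in Endoderm+SB, 49.0 in Endoderm, 71.5 in ESC+SB and 73.8 in ESC. Endoderm+SB held its highest value, where it held the lowest of Pax9, but both regions were named by their Endoderm+SB height. Zic2, a zinc finger regulator of neural development, had 54.6 in Endoderm+SB, 106 in Endoderm, 186 in ESC+SB and 138 in ESC, and Otx1, an anterior homeobox gene, had 59.5 in Endoderm+SB, 109 in Endoderm, 256 in ESC+SB and 180 in ESC. The named shared regions of Pax6, Otx1, Pax3, Zic2, Meis1 and Dlx1 overlapped no SMAD2/3 region, as did 30.9% of all shared regions. Those of Pax9 (SMAD2/3 height 30.4) and Meis2 (37.3) overlapped SMAD2/3 in Endoderm only.

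Genes of definitive endoderm had a shared region at 5 of 19: Eomes, Otx2, Gsc, Lhx1 and Gata4. Eomes, the T-box gene needed for definitive endoderm, had at chr9:118395924-118396369 HEB heights of 79.0 in Endoderm+SB, 239 in Endoderm, 35.2 in ESC+SB and 37.1 in ESC, and a SMAD2/3 height of 206 in Endoderm. Otx2, a regulator of anterior fate, had over its 5′ end HEB heights of 52.7 in Endoderm+SB, 162 in Endoderm, 51.1 in ESC+SB and 50.1 in ESC. Gsc, the organiser gene goosecoid, had 36.5 in Endoderm+SB, 56.0 in Endoderm, 47.5 in ESC+SB and 29.6 in ESC, and Lhx1, a LIM homeobox gene of the organiser, had 30.3 in Endoderm+SB, 132 in Endoderm, 72.7 in ESC+SB and 111 in ESC. All 4 named regions had their highest deposited height in Endoderm, and how many of all shared regions did so was not counted. All 4 overlapped SMAD2/3 in Endoderm only, as did 42.9% of all shared regions. A height in another list is that of the whole overlapping region, which can be broader and have its summit elsewhere. The Lhx1 region, chr11:84339379-84339701, overlapped chr11:84337041-84341219 in Endoderm. Up to 4 genes per list were named by Endoderm+SB height, so the region of Gata4 is not described.

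Of 23 genes of the Nodal and activin list, 6 had a shared region, and 5 of these encode brakes on the pathway: Smad7, Ski, Skil, Tgif1 and Tgif2. How many of the 23 genes encode brakes was not counted, so this is not a result about brakes. Tgif2, at chr2:156665387-156665990 over its 5′ end, had heights of 61.2 in Endoderm+SB, 31.4 in Endoderm, 59.1 in ESC+SB and 31.5 in ESC. These were higher in both SB lists than in their untreated counterparts. The ESC part of this order was also that of the median promoter-proximal shared region. Tgif1, which like Tgif2 encodes a homeodomain corepressor of SMADs, had 34.7 in Endoderm+SB, 29.6 in Endoderm, 46.8 in ESC+SB and 31.1 in ESC. Smad7, which encodes an inhibitory SMAD, had HEB heights between 39.6 and 46.5 in all 4 lists and SMAD2/3 heights of 237 in Endoderm and 105 in ESC. Among 17 pluripotency genes, Sox2, Sall4, Lin28 and Tbx3 had a shared region. Lin28, an RNA-binding inhibitor of let-7, had 107 in Endoderm+SB, 102 in Endoderm, 53.0 in ESC+SB and 61.8 in ESC. Sox2, a core pluripotency and neural factor, had 82.4 in Endoderm+SB, 95.8 in Endoderm, 58.0 in ESC+SB and 60.7 in ESC. The named regions of both had higher deposited heights in the endoderm lists than in the ESC lists, which those of Sall4 and Tbx3 did not. Lin28 and Sall4 had 3 shared regions each, and only that of highest Endoderm+SB height is given. Sall4, a zinc finger factor, had 55.4 in Endoderm+SB, 28.4 in Endoderm, 31.2 in ESC+SB and 44.3 in ESC, and Tbx3, a T-box factor, had 46.9 in Endoderm+SB, 116 in Endoderm, 137 in ESC+SB and 92.7 in ESC.

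In the Wnt and Notch list, Tcf7l1, a repressor at Wnt targets, had 3 shared regions. The highest of them in Endoderm+SB, at chr6:72627090-72628262 in or near the gene, had HEB heights of 181 in Endoderm+SB, 133 in Endoderm, 40.8 in ESC+SB and 47.0 in ESC. Its SMAD2/3 heights were 252 in Endoderm and 45.2 in ESC. Notch2, a Notch receptor gene, had HEB heights of 147 in Endoderm+SB, 245 in Endoderm, 54.4 in ESC+SB and 72.3 in ESC. Jag1, a Notch ligand gene, had 95.8 in Endoderm+SB, 34.1 in Endoderm, 48.3 in ESC+SB and 39.7 in ESC. Snai1, a driver of epithelial-mesenchymal transition, was the highest of 3 genes (of 18) in the mesoderm list, with 67.1 in Endoderm+SB, 448 in Endoderm, 451 in ESC+SB and 499 in ESC, and Tbx5 and Hand2 were the others. Among housekeeping lists, a shared region was found at 4 of 21 ribosomal protein genes (Rpl5, Rpl18, Rpl28 and Rps15), 4 of 17 RNA processing genes (Sfrs2, Hnrnpk, Hnrnpu and Snrnp70) and 4 of 16 cell cycle genes (Ccnd2, Ccnd3, Cdkn1a and Cdkn2c). All 8 ribosomal protein and RNA processing genes had theirs at a promoter, with heights between 26.6 and 71.0 in Endoderm+SB. The 3 linker histone genes Hist1h1c, Hist1h1d and Hist1h1e (of 8 clustered histone genes) had heights from 91.2 to 102 in Endoderm+SB, from 93.4 to 118 in Endoderm, from 70.5 to 176 in ESC+SB and from 48.4 to 101 in ESC.

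Some shared regions lay near each other. Of the 2230, 549 (24.6%) had another within 10 kb, made up of 18.1% of the promoter-proximal and 29.7% of the other regions. This share was not computed for Endoderm+SB HEB regions that were not shared. Some neighbours overlapped the same broader region of the other lists. Lhx4, a LIM homeobox gene, and Tcfap2b, an AP-2 factor gene, had 5 shared regions each. Ahdc1, Gse1, Lmx1b, Meis2, Pknox2, Tcfap2a and Trim71 had 4 each, and 1290 of the 1475 genes had 1.

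The regions that differed most in rank between Endoderm+SB and the other lists are given by rank and not as a test. Meis2, a TALE homeobox gene, had at chr2:115886585-115887560 heights of 25.2 in Endoderm+SB, 147 in Endoderm, 319 in ESC+SB and 226 in ESC, yet a neighbouring Meis2 region at chr2:115887788-115889214 reached 51.8 in Endoderm+SB over the same broader regions of the other lists. Cldn4, a tight junction gene, had over its 5′ end at chr5:135422667-135423183 heights of 26.0 in Endoderm+SB, 149 in Endoderm, 162 in ESC+SB and 239 in ESC, the only promoter-proximal one of the 5 lowest. The others were chr9:66506527-66506819 with 26.3 in Endoderm+SB, 221 in Endoderm, 603 in ESC+SB and 914 in ESC, chr6:59118996-59119282 with 25.3 in Endoderm+SB, 219 in Endoderm, 168 in ESC+SB and 228 in ESC, and chr2:10291644-10292280 with 25.2 in Endoderm+SB, 71.1 in Endoderm, 209 in ESC+SB and 163 in ESC. The last lay 723 bp from the nearest listed 5′-end region, that of Sfmbt2, a Polycomb group gene. In the other direction, chr16:29666950-29668118 had 158 in Endoderm+SB, 26.4 in Endoderm, 40.0 in ESC+SB and 30.5 in ESC, and chr2:44381622-44382442 had 138 in Endoderm+SB, 29.0 in Endoderm, 33.5 in ESC+SB and 32.6 in ESC. A region in or near Cacna2d1, a calcium channel gene, had 89.3 in Endoderm+SB, 26.0 in Endoderm, 35.7 in ESC+SB and 31.4 in ESC, and one in or near Ephb2, an ephrin receptor gene, had 82.6 in Endoderm+SB, 33.3 in Endoderm, 31.1 in ESC+SB and 28.5 in ESC. The fifth, chr5:50513971-50514445, had 61.3 in Endoderm+SB, 26.1 in Endoderm, 29.9 in ESC+SB and 32.3 in ESC. None of these 5 lay at a promoter or overlapped SMAD2/3. Of the 5 lowest, Cldn4 alone lay at a promoter and overlapped SMAD2/3. Over all shared regions, 30.9% overlapped neither SMAD2/3 list.

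Just inside the threshold, the 3 shared regions of lowest Endoderm+SB height were in Nmnat2 (25.01), Syne1 (25.03) and Fgf5 (25.04), where the lowest height of the list was 25.0035. Fgf5, a gene of the primed epiblast, had 338 in Endoderm, 58.6 in ESC+SB and 85.8 in ESC. The lowest heights of shared regions in the other lists were 25.0049 in Endoderm, 28.0489 in ESC+SB and 25.0326 in ESC, beside list minima of 25.0019 in Endoderm, 28.0005 in ESC+SB and 25.0017 in ESC, and the heights of regions below those minima are not analysed here.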

How the data were processed

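HEB and SMAD2/3 ChIP-seq was analysed from 6 region lists, 1 per ChIP library, deposited by the authors. Input reads were not analysed here and count only as each list's background columns. Per the submitters' processing notes, CASAVA 1.8.2 and build mm9 were used. The aligner, peak caller and annotation were not given in the sources used here. Each region has, per the file headers, the count of ChIP and of background tags, their ratio (tag enrichment, the authors' value), the signal height of the ChIP and background profile at the peak, and distances in bp to a listed gene and its 5′ end. None of the sources used here gives the scaling of heights. Tag counts in regions, 933126 to 5051930 per list, are not library depth, which is unknown here. Coordinates are printed as deposited.

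Members were regions of Endoderm+SB HEB overlapping by at least 1 bp a region of each other HEB list, and where several overlapped, the highest was taken. Regions with several listed genes counted once. Lists were compared with Python 3.11.15, pandas 2.3.3 and scipy 1.17.1, and the code was run on simulated lists as a test, where 100.0% of 2249 planted Endoderm+SB HEB members were recovered among 10145 regions and the real overlaps were equal to those of bedtools 2.31.1. Shares have exact Clopper-Pearson 95% intervals, which cover counting error only. With 1 library per group no test was made.

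The members, the gene lists and the rule for named genes were chosen with earlier results of these data known. That rule took Id1, Bmi1 and Cbfa2t2, the 10 promoter-proximal and 10 other regions of highest lowest rank, up to 4 genes per list by Endoderm+SB height, the 5 regions highest and 5 lowest in Endoderm+SB relative to the other lists, and the 3 lowest regions. Regions of high background and small structural RNA genes were added after their values were seen. Gene symbols matched a GRCm38.p6 table for 98.9% of member genes. One named gene of the lists is not reported here.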

Additional observations from a re-analysis of the deposited data

Results flagged for a closer look

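Mitochondrial DNA was listed only in the Endoderm+SB HEB list and was left out of the comparisons above. It held 2 regions, from 10922 to 15772 with 69118 ChIP and 27409 background tags and a tag enrichment of 2.52, and from 1 to 6520 with 73905 ChIP and 31743 background tags and a tag enrichment of 2.33. The other 5 lists held 0 mitochondrial regions. The same library supplied the regions from which the shared ones were drawn, and whether the signal bears on them was not tested.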

How the results depend on the processing

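Limited to the upper 50% of each list, 740 regions were shared, with promoter-proximal shares of 30.1% (others 22.2%), Endoderm SMAD2/3 overlap of 53.4% (others 20.5%) and ESC SMAD2/3 overlap of 22.6% (others 1.92%). With equal HEB list lengths, 1184 were shared, the promoter-proximal order turned (30.9%, others 34.9%), Endoderm SMAD2/3 overlap of the others was 33.0%, and ESC SMAD2/3 overlap was 34.3% (others 4.54%). Counted as ESC HEB regions, the others stood at 13.8% promoter-proximal, 12.0% Endoderm SMAD2/3 and 18.8% ESC SMAD2/3. Counted as Endoderm HEB regions, an alternative chosen after seeing the data, they stood at 11.3% promoter-proximal, 31.2% Endoderm SMAD2/3 and 4.46% ESC SMAD2/3. With overlap of a 5′ end required, 33.7% of shared and 27.4% of other regions were promoter-proximal. Ranked by tag enrichment, median percentiles of promoter-proximal shared regions were 30.8 in Endoderm+SB, 15.4 in Endoderm, 38.0 in ESC+SB and 23.9 in ESC, and those of the other shared regions 52.8 in Endoderm+SB, 52.9 in Endoderm, 72.1 in ESC+SB and 65.2 in ESC. The cause of these shifts was not tested. With 50% overlap (2214 shared regions), without regions of background height above 10 (2219, chosen after seeing the data) and with SMAD2/3 overlap standardized over height quintiles (others 28.9% for Endoderm and 2.90% for ESC SMAD2/3), values stayed within their intervals. No paired analysis was possible because each group held 1 library, and for the same reason no library could be left out. The planned motif comparison and its base-composition alternative were not run, since too few genes had a promoter in the table.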
